A study of Mus musculus with 19 samples.

Results

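The 7 genes described here, Mdh1, Mdh2, Slc25a11, Slc25a12, Slc25a13, Gpd1 and Gpd2, encode the dehydrogenases and mitochondrial carriers that move cytosolic NADH electrons into mitochondria. They were chosen by name from the genes of these shuttles. They are 7 of the 35598 genes with a transcript in the files, and all 7 are among the 15123 genes that passed the filter on low counts. RNA was measured in 19 libraries of primary myoblasts from mouse hind-limb muscle, labelled either wild type (WT) or Glud1KO. Proliferating myoblasts are labelled 24 h, differentiated myotubes 48 h and fused myotubes 72 h. WT libraries numbered 3, 3 and 4 at these stages and Glud1KO libraries 3, 2 and 4, and all 6 groups are compared. The labels give no other allele, no driver of recombination and no age. They call the replicates biological without naming the unit, an animal or a culture, so SDs and tests describe the spread between these libraries, which may be technical.

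Libraries held 16168131 to 30742634 estimated counts. Levels are given as CPM, the estimated counts scaled to library depth by TMM, for comparing libraries, and as the deposited TPM, which also corrects for transcript length, for comparing genes. The summed level of the 8 myogenic markers was 1922 to 2101 CPM in WT myoblasts and 1663 to 1726 in the KO-labelled ones. Differentiated myotubes of both labels together had 22862 to 26585 CPM, and there the labels overlapped. At the fused stage the sums were 21796 to 23881 for WT and 20920 to 21482 for the KO label, without overlap. Of these 8 markers, 6 rose and 2 fell from WT myoblasts to WT differentiated myotubes. Beside 11.6% of all genes tested, 5 of the 8 were called lower in KO-labelled than in WT myoblasts, with a median log2 change of -0.39. Among them were the embryonic myosin gene Myh3, at 117 against 221 CPM, and the myogenic factor Myog, at 73.6 against 114 CPM on average. In differentiated myotubes 3 were lower and 1 higher, with a median log2 change of -0.012, the same as over all genes tested. There 25.2% of all genes were called, 11% higher and 14.1% lower. In fused myotubes 1 marker was lower, beside 13% of all genes called, 6.72% lower. The part of these differences in the label comparisons given further on was not tested. Of the other cell types checked, the 5 fibroblast markers together stayed at or under 3.40 CPM, the 5 endothelial ones at or under 1.25 CPM and the 5 adipocyte ones at or under 0.176 CPM. In each group 1 to 2 of the fibroblast and of the endothelial markers and 1 to 4 of the adipocyte markers were at 0 in all libraries. The 5 immune markers summed to at most 28.0 CPM, nearly all of it Itgam. Glud1 itself, which encodes mitochondrial glutamate dehydrogenase, did not separate the labels by CPM. Myoblasts had 184 to 192 CPM under the WT label and 185 to 190.04 under the other, and the edgeR adjusted p was 0.849, 0.193 and 0.748 at the 3 stages. In TPM it was lower in the KO-labelled libraries at each stage, for example 163 to 175 against 136 to 142 TPM in myoblasts. Beside this, its short transcript ENSMUST00000159784 (699 nt) held 11.1% to 11.9% of the gene's counts in WT myoblasts, against 5.96% to 6.44% under the KO label. Names of the deposited files mark both label groups as KO, so the second group is called KO-labelled throughout, and a direction given for it rests on the label.

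Glycolysis reduces NAD to NADH in the cytosol, and the inner mitochondrial membrane does not let NADH through. In the malate-aspartate shuttle, a cytosolic malate dehydrogenase (MDH1) reduces oxaloacetate to malate, the oxoglutarate carrier (SLC25A11) brings malate in, a mitochondrial malate dehydrogenase (MDH2) recovers NADH, and the aspartate-glutamate carriers aralar (SLC25A12) and citrin (SLC25A13) send aspartate back. In the glycerol 3-phosphate shuttle, cytosolic GPD1 makes glycerol 3-phosphate and GPD2 on the outer face of the inner membrane oxidises it, passing electrons to ubiquinone. Glutamate, the substrate of GLUD1, is carried and transaminated in the malate-aspartate shuttle. Aralar is known as the form of excitable tissue and muscle, and citrin as that of liver.

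Over the course of differentiation in WT libraries, RNA levels of genes of both shuttles changed. From myoblasts to fused myotubes, Mdh1, Mdh2, Slc25a11, Slc25a12 and Gpd1 rose, and Slc25a13 and Gpd2 fell. All 7 members were called at an edgeR adjusted p under 0.05, where 85.5% of all genes tested were called, 42.2% higher and 43.4% lower. The median log2 change of the members was 1.56, beside -0.013 over all genes tested and a median size of 1.04. From myoblasts to differentiated myotubes 6 members were called, 4 higher and 2 lower, beside 85% of all genes, 42.4% higher and 42.6% lower. From differentiated to fused myotubes 6 were called, all higher, beside 75.1% of all genes called and 37.4% called higher. Ranges did not overlap for 6, 6 and 7 members at the earlier step, the later step and the whole course, beside 85.1%, 71.6% and 83.4% of all genes. In bulk RNA, a change in the share of cells that have differentiated and a change of RNA per cell cannot be told apart.

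**Figure D1:**
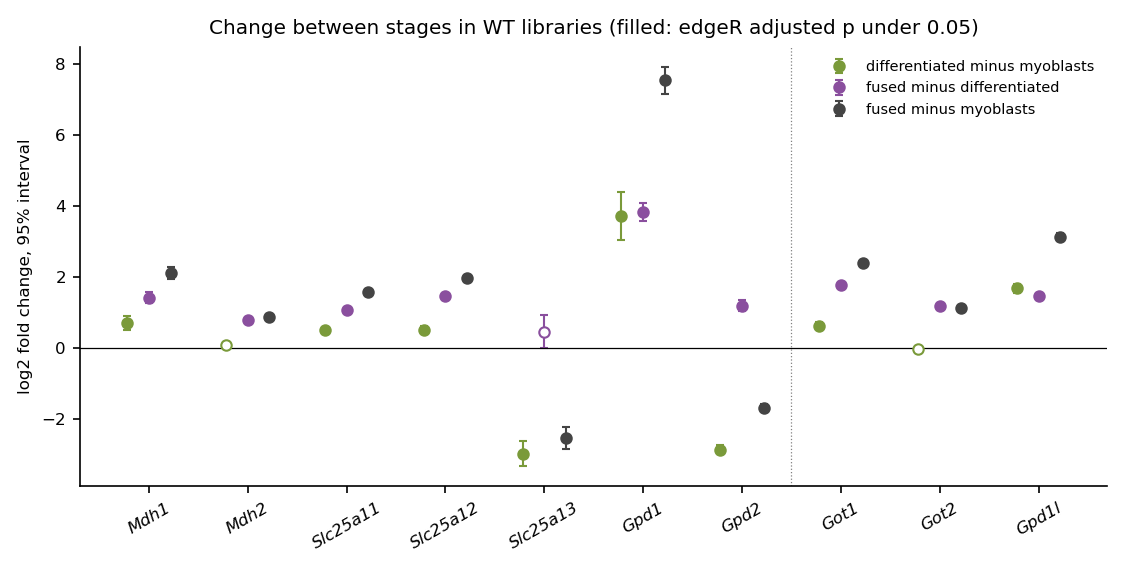
Log2 fold changes between stages in WT libraries (vertical axis, with 95% intervals from edgeR) for the 7 members and, right of the dotted line, the 3 transaminase and dehydrogenase partners. Filled points passed an adjusted p under 0.05, and Slc25a13 and Gpd2 are the members below 0 in fused myotubes against myoblasts.

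Mdh2 (ENSMUSG00000019179.10) lies on chromosome 5 of GRCm38 from 135778480 to 135790398, plus strand. Over all its annotated transcripts it was the most abundant member per length in each of the 6 groups, at 829.9 TPM in WT myoblasts, 709 in WT differentiated and 1165 TPM in WT fused myotubes. Of its counts, 39.3% to 44.7% on average in the WT groups fell on ENSMUST00000138101, annotated as a target of nonsense-mediated decay, and its protein-coding transcripts summed to 502, 432 and 708 TPM. Of these, ENSMUST00000019323, with the longest coding sequence (1014 nt), had 178, 218 and 336 TPM. Short transcripts of 506 and 648 nt, with coding sequences of 459 and 597 nt, had 165 and 159 TPM in WT myoblasts and 171 and 201 TPM in WT fused myotubes. Its WT myoblasts were at 447, 425 and 455 CPM, the differentiated myotubes at 472, 453 and 475 and the fused ones at 794, 815, 849.7 and 777 CPM. The ranges of the first 2 stages overlapped and the fused myotubes stood above both. Between these first stages the log2 change was 0.077 ± 0.044 (SE, edgeR adjusted p 0.109), a value whose sign depended on the scaling. It was -0.18 under library size only (edgeR adjusted p 2.83e-04) and up to 0.32 with protein-coding transcripts only (edgeR adjusted p 1.31e-04), within 1.31e-04 to 0.919 over its alternatives. The rise from differentiated to fused myotubes was 0.79 ± 0.042 (SE, edgeR adjusted p 1.87e-15).

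Mdh1 (ENSMUSG00000020321.15), on chromosome 11 from 21556787 to 21572367 on the minus strand, needs its measurement stated first. Of the counts assigned to it, 92.4% ± 7.58 (SD, n = 3) in WT myoblasts and 96.9% ± 3.58 (SD, n = 4) in WT fused myotubes fell on ENSMUST00000125302, a 549-nt transcript with 6 exons. The transcript ENSMUST00000102874 of 2122 nt and 9 exons held 1.74% and 0.797%. Mdh1 exons overlap those of Wdpcp on the other strand. The files also hold ENSMUST00000239073 (1958 nt), an identifier that is not in the annotation used. Its length equals that of the RefSeq Mdh1 mRNA as built from the RefSeq gene ends and the annotated exons, and it is the 1 unmatched transcript with that length. For the other 6 members no unmatched transcript had the length built that way. Its identity rests on this length alone, so Mdh1 is given without it, as the rule sets, and with it.

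Without that transcript, Mdh1 was at 17.02, 19.2 and 16.5 CPM in WT myoblasts, 27.9, 28.2 and 29.5 in WT differentiated and 75.3, 82.2, 78.3 and 69.6 CPM in WT fused myotubes. The 3 stages did not overlap, and each step was a rise, by 0.71 ± 0.093 and 1.41 ± 0.078 on the log2 scale (SE, edgeR adjusted p 1.04e-07 and 4.36e-15). With it, the level was 130.3 ± 2.18 CPM in WT myoblasts (SD, n = 3), 298 ± 13.1 in WT differentiated (SD, n = 3) and 706 ± 33.1 CPM in WT fused myotubes (SD, n = 4). The rises were then 1.19 ± 0.046 and 1.245 ± 0.043 (SE, edgeR adjusted p 4.56e-19 and 1.28e-19). The rise over the course is thus present both ways, while the level of Mdh1 differs several fold. Mdh2 exceeded Mdh1 by a TPM ratio of 10.9 ± 1.37 in WT myoblasts (SD, n = 3) and 4.30 ± 0.345 in WT fused myotubes (SD, n = 4). With the unmatched transcript these ratios were 4.14 ± 0.279 and 1.37 ± 0.0888, and over protein-coding transcripts only they were 6.98 and 2.67. With both choices together the ratio was 2.56 ± 0.218 in WT myoblasts (SD, n = 3), 0.840 ± 0.0617 in WT fused and 0.804 ± 0.0368 in KO-labelled fused myotubes (SD, n = 4 each). In that case Mdh1 was above Mdh2 in every fused library and below it in every other one. The protein-coding sums behind these ratios include short transcripts with part of the coding sequence, such as those of 506 and 648 nt for Mdh2.

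Slc25a11 (ENSMUSG00000014606.14), on chromosome 11 from 70644196 to 70647479 on the minus strand, encodes the carrier that exchanges malate for 2-oxoglutarate. It was at 77.9, 75.2 and 76.9 CPM in WT myoblasts, 114, 105 and 107 in WT differentiated and 227, 241, 233 and 208 CPM in WT fused myotubes. The stages did not overlap. The steps were rises of 0.50 ± 0.048 and 1.07 ± 0.044 on the log2 scale (SE, edgeR adjusted p 3.41e-10 and 9.19e-18). Its exons overlap those of Rnf167 on the other strand. Use of strand in the counting is not given in the sources used here, so reads of such pairs may not be separable.

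The aspartate-glutamate carriers went opposite ways. Slc25a12 (ENSMUSG00000027010.16, chromosome 2, 71271063 to 71367749, minus strand) was at 59.0, 53.1 and 55.6 CPM in WT myoblasts, 74.9, 79.8 and 83.9 in WT differentiated and 223, 220.4, 224 and 202 CPM in WT fused myotubes. Slc25a13 (ENSMUSG00000015112.15, chromosome 6, 6041218 to 6217173, minus strand) was at 8.33, 8.13 and 8.05 CPM in WT myoblasts, 1.38, 1.26 and 0.563 in WT differentiated and 1.28, 1.08, 1.85 and 1.44 CPM in WT fused myotubes. Every myotube library was thus above every myoblast library in Slc25a12 and below every one in Slc25a13. Slc25a12 rose by 0.51 ± 0.048 and then by 1.45 ± 0.043 on the log2 scale (SE, edgeR adjusted p 1.74e-10 and 8.00e-21). Slc25a13 fell by 2.98 ± 0.17 into differentiated myotubes (SE, edgeR adjusted p 2.71e-15). After that its ranges overlapped, and the step of 0.45 ± 0.22 did not pass the test (SE, edgeR adjusted p 0.0695). It passed without WT differentiated replicate 1 (0.67) or 2 (0.62), without WT fused replicate 2 (0.54) and with an offset for length and GC content (0.52, edgeR adjusted p 0.0173, 0.0331, 0.0383 and 0.0363, within 0.0173 to 0.721 over its alternatives). Slc25a13 rested on 16 to 29 estimated counts a library in WT differentiated myotubes, against 188 to 241 in WT myoblasts.

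The TPM ratio of Slc25a12 to Slc25a13 went from 7.39 ± 0.452 in WT myoblasts (SD, n = 3) through 52.1 ± 17.6 (SD, n = 3) to 147 ± 14.3 in WT fused myotubes (SD, n = 4). In KO-labelled libraries it went from 8.44 ± 0.336 (SD, n = 3) through 89.9 ± 15.3 (SD, n = 2) to 116 ± 35.4 (SD, n = 4). The order of the carriers in myoblasts depends on which transcripts are counted. Of the Slc25a12 counts, 70.3% to 71.7% on average in the WT groups fell on ENSMUST00000184169, annotated as a target of nonsense-mediated decay, and 26.5% to 27.4% on the coding transcript ENSMUST00000151937. Over protein-coding transcripts only, the ratio was 0.798 in WT myoblasts, 12.6 in WT differentiated and 19.8 in WT fused myotubes, so there Slc25a13 was the higher in myoblasts and Slc25a12 in myotubes.

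**Figure D2:**
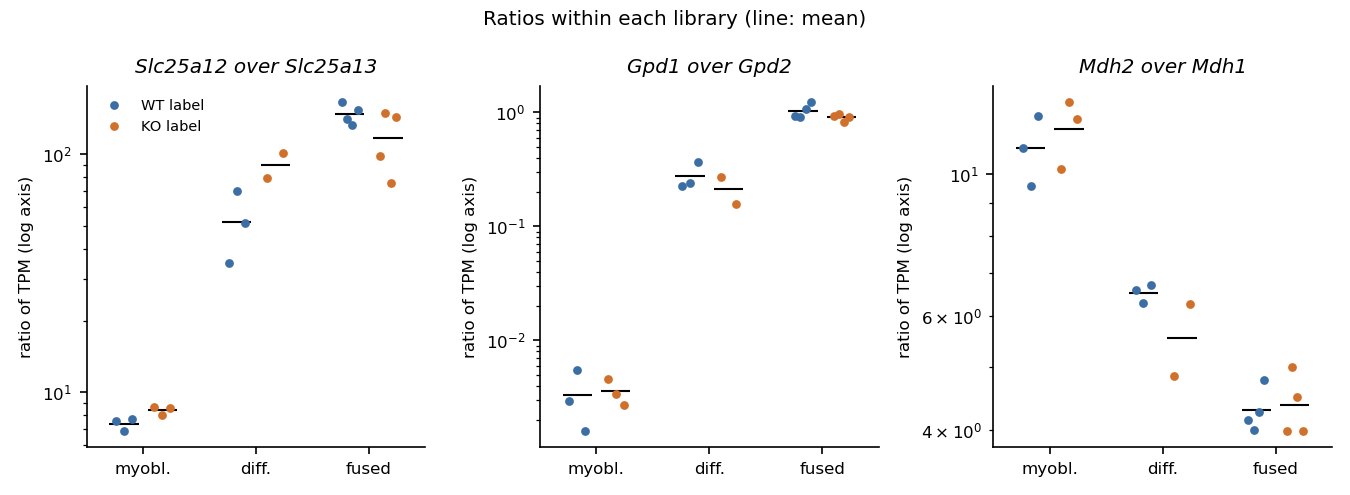
Ratio of TPM between paired genes within each library (log axes), by stage and label, with each point a library and each line a group mean. The mean ratios of Slc25a12 to Slc25a13 and of Gpd1 to Gpd2 are higher at each later stage under both labels, and that of Mdh2 to Mdh1 is lower, while KO-labelled libraries of the carrier and of the malate dehydrogenase ratio overlap between the myotube stages.

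Gpd1 (ENSMUSG00000023019.12, chromosome 15, 99717515 to 99725005, plus strand), the cytosolic glycerol 3-phosphate dehydrogenase, had the largest log2 change of the 7. It held 3, 5 and 4 estimated counts in the WT myoblast libraries, at 0.105, 0.216 and 0.134 CPM. It was at 1.99, 2.00 and 1.97 CPM in WT differentiated and 31.6, 27.0, 31.1 and 24.0 CPM in WT fused myotubes, with no overlap between stages. From the summed 12 counts, the WT fused level was 187-fold that of myoblasts, with an exact Poisson 95% interval of 107 to 363 that covers the counting error of the myoblast total only. The step from differentiated to fused myotubes, which rests on more counts, was 3.83 ± 0.12 on the log2 scale (SE, edgeR adjusted p 2.18e-20). Of all genes tested, 98.3% changed less in size at that step.

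Gpd2 (ENSMUSG00000026827.12, chromosome 2, 57237635 to 57370719, plus strand), the mitochondrial partner, went down first and then part of the way back. It was at 88.8, 93.6 and 90.2 CPM in WT myoblasts, 11.4, 11.6 and 13.8 in WT differentiated and 27.4, 30.2, 29.9 and 26.0 CPM in WT fused myotubes. The stages did not overlap, and the lowest level was that of differentiated myotubes. Gpd2 fell by 2.88 ± 0.064 and then rose by 1.19 ± 0.069 on the log2 scale (SE, edgeR adjusted p 1.29e-24 and 1.40e-14). Per length, Gpd1 was far below Gpd2 in WT myoblasts, at 0.129 against 38.1 TPM, and the 2 overlapped in WT fused myotubes, at 11.2 ± 1.55 and 11.1 ± 2.68 TPM (SD, n = 4). Their TPM ratio moved from 0.00333 in WT myoblasts to 0.276 and then 1.03 ± 0.148 (SD, n = 4). Over protein-coding transcripts only, it was 1.61 in WT fused myotubes, with libraries at 1.40 to 1.92, and 1.32 in KO-labelled ones, with libraries at 1.24 to 1.48. Counted that way, Gpd1 was above Gpd2 in every fused library. Gpd1 exons overlap the antisense gene Gm16537 and Gpd2 exons overlap A930012O16Rik, both on the other strand.

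Slc25a13 and Gpd2 fell over the WT course, and Slc25a12, the paralog of Slc25a13, rose. The sequences before the starts of these 3 members are shown for their shared or missing motifs. They are RefSeq promoter windows of GRCm38.p6, which 6 of the 7 members have, cut back so that no annotated exon is included. The Gpd2 window is the later of its 2 and lies inside the gene, before the start of ENSMUST00000028167, the transcript that held 92.1% of its counts on average in WT myoblasts. They are written 5′ to 3′ on the gene's strand, with CANNTG (E-box) letters in capitals. The windows are chr2:71367782-71368005 (minus), chr6:6217305-6217423 (minus) and chr2:57238132-57238296 (plus).
Slc25a12: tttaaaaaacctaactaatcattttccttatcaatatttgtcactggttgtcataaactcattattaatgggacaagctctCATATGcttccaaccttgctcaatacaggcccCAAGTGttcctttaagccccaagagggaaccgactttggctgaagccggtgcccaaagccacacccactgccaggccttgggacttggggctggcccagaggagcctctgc
Slc25a13: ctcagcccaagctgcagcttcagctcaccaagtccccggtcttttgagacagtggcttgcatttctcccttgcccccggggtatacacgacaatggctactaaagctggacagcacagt
Gpd2: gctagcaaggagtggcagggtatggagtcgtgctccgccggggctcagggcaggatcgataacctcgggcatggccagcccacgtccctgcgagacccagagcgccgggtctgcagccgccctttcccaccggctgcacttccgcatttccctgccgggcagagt
The Slc25a12 stretch holds 2 CANNTG matches and the other stretches none. CANNTG reads the same pattern on both strands and contains CAGCTG and CACGTG. The motif counts and shares that follow cover the full 250 bases before each start, without the 50 bases after it. There Slc25a12 has 2 matches, Mdh1, Mdh2, Slc25a11 and Slc25a13 have 1 each, and the 2 Gpd2 windows 3 and 0. Of all 32851 windows, 66.2% hold at least 1. CAGCTG, in 13% of all windows, is in none of the members' windows. CACGTG, in 6.02% of all windows, is in that of Slc25a13. The MEF2 motif, in 2.92%, is in none.

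The transaminases and the GPD1 paralog that complete the shuttles moved with the rising members in WT libraries. Got1, the cytosolic aspartate transaminase, rose by 0.62 ± 0.044 and then 1.775 ± 0.040 on the log2 scale (SE, edgeR adjusted p 3.35e-13 and 2.06e-23). Gpd1l, a paralog of Gpd1, rose by 1.68 ± 0.061 and 1.45 ± 0.047 (SE, edgeR adjusted p 1.06e-19 and 4.65e-20). Gpd1l was thus above Gpd1 per length at each stage, with 38.9 against 11.2 TPM in WT fused myotubes. Got2, the mitochondrial transaminase, was not called at the earlier step (-0.044 ± 0.046, SE, edgeR adjusted p 0.372) and rose by 1.16 ± 0.044 at the later one (SE, edgeR adjusted p 9.63e-19).

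Between the genotype labels the members differed little. In myoblasts, 0 of 7 were called by edgeR, where 11.6% of all genes were. At an unadjusted edgeR p under 0.05 it was 0, and by DESeq2 it was 0. In differentiated myotubes 2 were called, Mdh1 higher and Gpd2 lower, beside 25.2% of all genes, 11% higher and 14.1% lower. In fused myotubes 1 was called, Gpd1 lower, beside 13% of all genes, 6.72% lower. Ranges did not overlap for 1, 2 and 0 members, beside 33%, 46.5% and 15.8% of all genes. The median log2 change of the members was -0.016, 0.028 and -0.0012 at the 3 stages, with 0.014, -0.012 and -0.0063 over all genes tested. These counts are near the background, and each of the 3 calls was lost under some alternative.

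**Figure D3:**
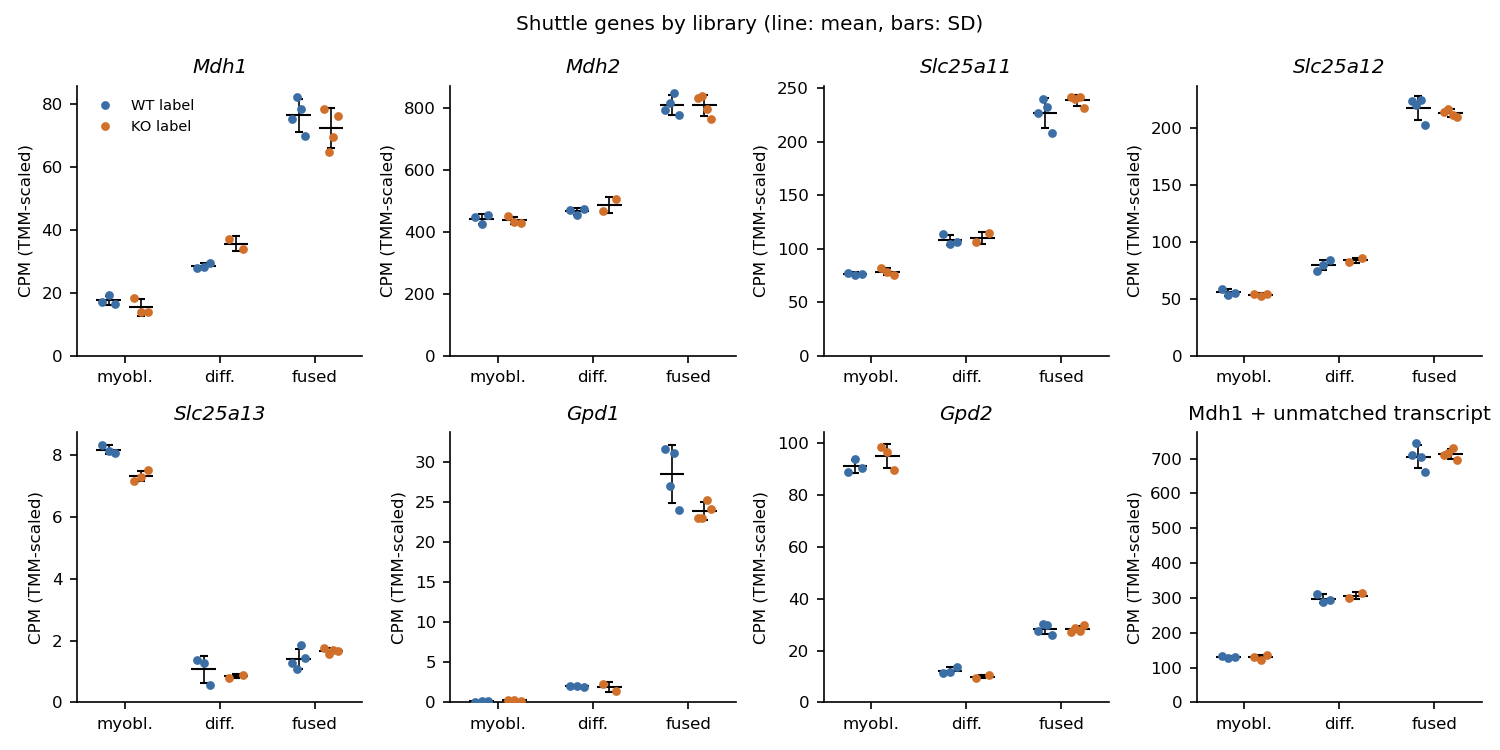
CPM of each member in each library (points), with group means (lines) and SDs (bars), for WT and KO-labelled libraries at the 3 stages. The last panel adds the unmatched transcript to Mdh1, where WT and KO-labelled libraries overlap at each stage.

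In differentiated myotubes, Mdh1 was at 37.2 and 33.9 CPM in the 2 KO-labelled libraries against 27.9, 28.2 and 29.5 in WT, without overlap. The log2 change was 0.31 ± 0.10 (SE, edgeR adjusted p 0.0202, within 9.79e-05 to 0.587 over its alternatives). With the unmatched transcript, the KO-labelled libraries were at 307 ± 8.60 CPM (SD, n = 2) and the log2 change was 0.043 ± 0.050, with a 95% interval of -0.060 to 0.15 (edgeR adjusted p 0.587). Over protein-coding transcripts only, the value was 0.22 (edgeR adjusted p 0.165). The 549-nt transcript was at 107 TPM on average in KO-labelled and 103 TPM in WT differentiated myotubes. The non-coding ENSMUST00000144978 (644 nt) was at 13.7 against 5.06 TPM, and held 11.7% ± 4.65 (SD, n = 2) against 5.05% ± 4.44 (SD, n = 3) of the gene's counts. No single transcript was tested. The call was also lost without KO-labelled replicate 1 (0.25, edgeR adjusted p 0.207), under library size only (0.26, edgeR adjusted p 0.0637) and with the effective-length offset (0.29, edgeR adjusted p 0.1075). In myoblasts Mdh1 was at 18.5, 13.9 and 13.8 CPM in KO-labelled libraries, overlapping WT, and in fused myotubes at 78.5, 64.7, 69.4 and 76.3 CPM, again overlapping. Without KO-labelled myoblast replicate 1 it was called lower in myoblasts (-0.34, edgeR adjusted p 0.0246, within 0.0246 to 0.937 over its alternatives).

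Gpd2 was at 9.47 and 10.4 CPM in KO-labelled differentiated myotubes against 11.4, 11.6 and 13.8 in WT, again without overlap. Its log2 change was -0.31 ± 0.10 (SE, edgeR adjusted p 0.0228, within 0.006 to 0.948 over its alternatives). The call was lost without WT differentiated replicate 3, the highest library (-0.21, edgeR adjusted p 0.158), and without KO-labelled replicate 1 (-0.24, edgeR adjusted p 0.224). It was lost as well with only the groups compared (-0.31, edgeR adjusted p 0.0629) and with offsets for length and GC content (-0.16, edgeR adjusted p 0.292) or effective length (-0.032, edgeR adjusted p 0.948). In myoblasts Gpd2 was at 98.5, 96.5 and 89.7 CPM in KO-labelled libraries, overlapping WT, and the log2 change was 0.063 ± 0.050 (SE, edgeR adjusted p 0.473). The KO-labelled fused libraries had 27.2, 28.5, 27.5 and 29.9 CPM, within the WT range.

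Gpd1 was at 23.0, 23.0, 25.3 and 24.1 CPM in KO-labelled fused myotubes, against 31.6, 27.0, 31.1 and 24.0 in WT. WT replicate 4 lay inside the KO-labelled range, so the groups overlapped. The log2 change was -0.25 ± 0.077 (SE, edgeR adjusted p 0.0334, within 0.00348 to 0.285 over its alternatives, 10 of 18 of which called it). It was not called without WT fused replicate 1 or 3 or KO-labelled replicate 1, 2 or 4 (edgeR adjusted p 0.165, 0.113, 0.0898, 0.096 and 0.0524). In KO-labelled myoblasts Gpd1 held 12, 9 and 6 estimated counts against 3, 5 and 4, a log2 change of 0.91 ± 0.50 (SE, edgeR adjusted p 0.265). In differentiated myotubes its 2 KO-labelled libraries, at 2.35 and 1.47 CPM, lay on either side of the WT ones.

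**Figure D4:**
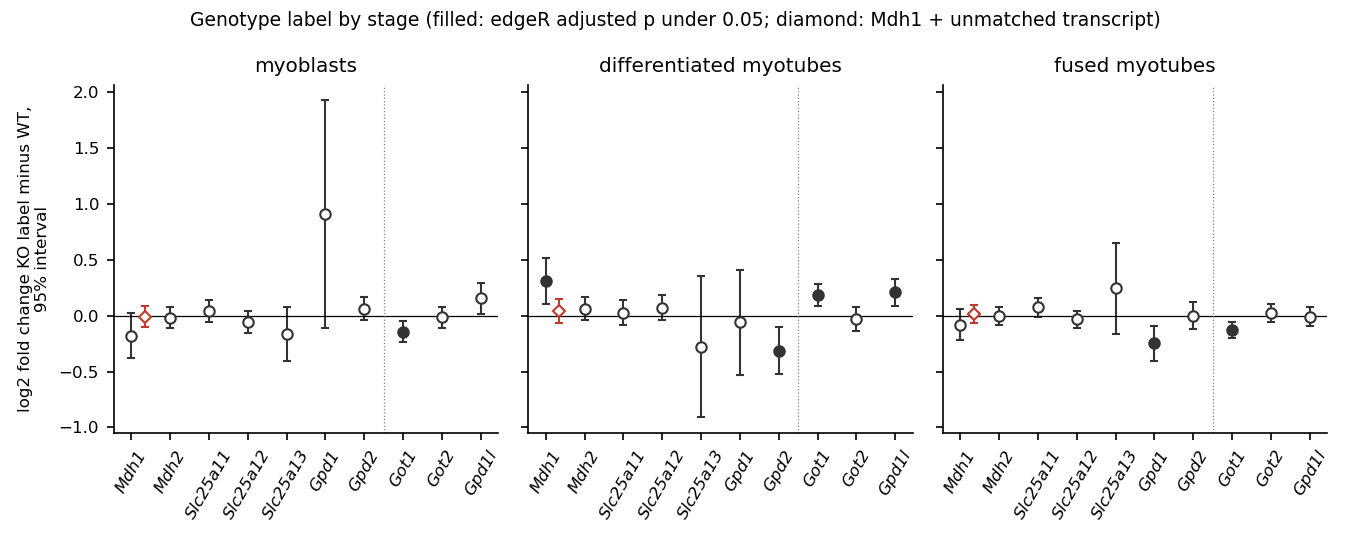
Log2 fold change of KO-labelled against WT libraries (vertical axis, 95% intervals from edgeR) at each stage for the 7 members and, right of the dotted line, Got1, Got2 and Gpd1l. Filled points passed an adjusted p under 0.05, and red diamonds give Mdh1 with the unmatched transcript, near 0 at each stage.

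Mdh2, Slc25a11, Slc25a12 and Slc25a13 were not called between the labels at any stage. Mdh2 in KO-labelled libraries was at 451, 432 and 430.3 CPM in myoblasts, 469 and 506 in differentiated and 834, 838, 795 and 765 CPM in fused myotubes. Slc25a11 was at 82.2, 78.7 and 75.5, at 106 and 114, and at 242, 240.3, 242 and 231 CPM. Slc25a12 was at 54.0, 52.6 and 54.6, at 82.2 and 85.5, and at 214, 217, 211 and 209 CPM. All 3 overlapped WT at each stage, and in fused myotubes the 95% intervals of their log2 changes lay within -0.11 and 0.16. Slc25a12 was called higher in differentiated myotubes under 1 alternative, the offset for length and GC content (0.15, edgeR adjusted p 0.0257, within 0.0257 to 0.851 over its alternatives). Slc25a13 in KO-labelled myoblasts, at 7.16, 7.30 and 7.49 CPM, lay below WT without overlap, and its log2 change of -0.16 ± 0.12 did not pass (SE, edgeR adjusted p 0.438). Its later values were 0.802 and 0.891 CPM in differentiated and 1.76, 1.56, 1.70 and 1.67 CPM in fused myotubes, overlapping WT at both stages.

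Whether the effect of the label differed between stages was tested as an interaction. Between myoblasts and differentiated myotubes 2 members were called, beside 19.1% of all genes, 7.78% higher and 11.3% lower. They were Mdh1 (0.49 ± 0.14, SE, edgeR adjusted p 0.0132) and Gpd2 (-0.37 ± 0.11, SE, edgeR adjusted p 0.0188). Between differentiated and fused myotubes 1 was called, Mdh1 (-0.39 ± 0.12, SE, edgeR adjusted p 0.0262), beside 14.8% of all genes, 6.53% lower. Without KO-labelled differentiated replicate 1 all 3 calls were lost (edgeR adjusted p 0.0824, 0.149 and 0.163). The Gpd2 call was also lost without WT differentiated replicate 3 (edgeR adjusted p 0.0983) and the later Mdh1 call without KO-labelled fused replicate 2 (edgeR adjusted p 0.0524). Of its 24 alternatives, 18 kept the later Mdh1 call. Under library size only it was lost (edgeR adjusted p 0.064) and Gpd2 was called in its place (0.37, edgeR adjusted p 0.0287), and with the length and GC offset Slc25a12 was called beside Mdh1 (-0.18, edgeR adjusted p 0.0367). Between myoblasts and fused myotubes 0 were called by edgeR, beside 10.3% of all genes, and 0 by DESeq2. At an unadjusted edgeR p under 0.05 there was 1, Gpd1 (p from edgeR 0.0299). With the unmatched transcript the Mdh1 values were 0.052 ± 0.068 and -0.026 ± 0.063 (SE, edgeR adjusted p 0.674 and 0.835). The genotype comparisons and these interactions share libraries.

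Of the partners, Got1 was the one called at all 3 stages, and its direction differed between them. It was at 64.8, 63.6 and 62.6 CPM in KO-labelled myoblasts against 71.9, 70.1 and 68.9 in WT, at 118 and 128 against 107, 106 and 112 in differentiated myotubes, and at 335, 339, 347 and 333 against 365, 381, 389 and 348 CPM in fused myotubes. The labels did not overlap at any stage, with KO-labelled libraries lower, higher and lower in turn. At the 3 stages taken singly, 33%, 46.5% and 15.8% of all genes did not overlap, and 11.6%, 25.2% and 13% were called. The myogenic markers called at these stages were 5 lower, then 3 lower and 1 higher, then 1 lower, and their part in the Got1 values was not tested. The log2 changes were -0.14 ± 0.044, 0.18 ± 0.048 and -0.13 ± 0.034 (SE, edgeR adjusted p 0.0362, 0.00524 and 0.0123). The interactions were 0.33 ± 0.065 and -0.31 ± 0.059 (SE, edgeR adjusted p 6.45e-04 and 5.17e-04), and both were lost with the effective-length offset (edgeR adjusted p 0.127 and 0.079). The myoblast call held in 6 of 16 alternatives, the differentiated one in 13 of 15 and the fused one in 16 of 18, and without any 1 of the 6 myoblast libraries the first was lost. Without KO-labelled differentiated replicate 2 the middle one was lost (edgeR adjusted p 0.156), and without WT fused replicate 3 the last (edgeR adjusted p 0.0543). Gpd1l was higher in KO-labelled differentiated myotubes, by 0.21 ± 0.060 (SE, edgeR adjusted p 0.0106), in 11 of 15 alternatives. It was lost there without WT differentiated replicate 2 (edgeR adjusted p 0.0674) or KO-labelled replicate 2 (edgeR adjusted p 0.0963).

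**Figure D5:**
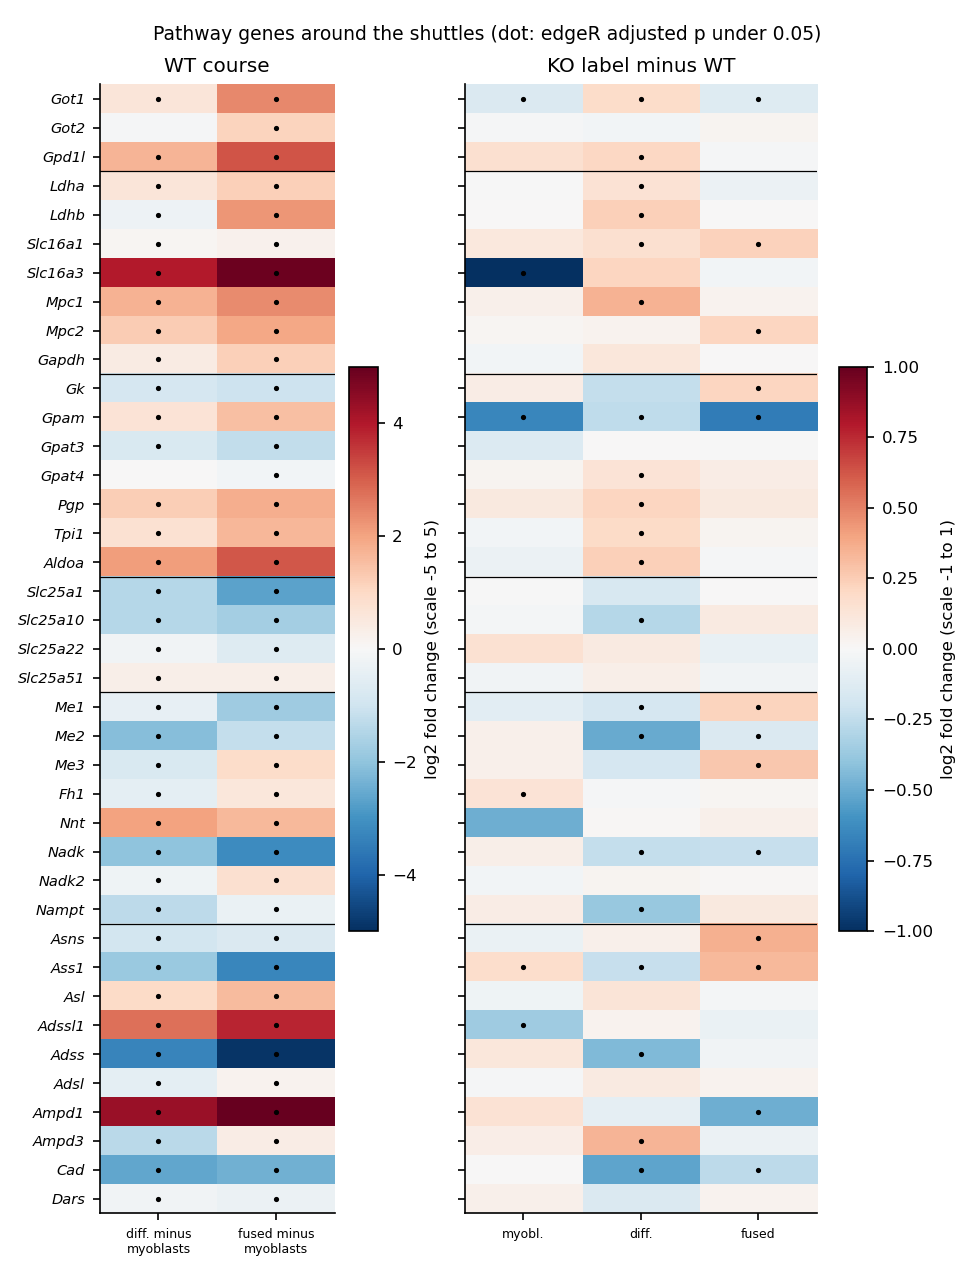
Log2 fold changes of the tested pathway genes (rows, grouped by list) in the WT course, on a scale of -5 to 5 that Ampd1 passes, and between the labels at each stage, on a scale of -1 to 1 that Slc16a3 just passes. Dots mark an edgeR adjusted p under 0.05, and most genes are called in the WT course.

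Around the shuttles, 42 further genes in 6 lists were examined, of which 39 were tested. The counts over the WT course stand beside 85.5% of all genes called, 42.2% higher and 43.4% lower. In WT fused myotubes against myoblasts, all 7 genes that handle lactate and pyruvate or make cytosolic NADH rose, with a median log2 change of 1.94. They were led by the lactate exporter Slc16a3 (4.91 ± 0.14), the pyruvate carrier subunit Mpc1 (2.35 ± 0.046) and the lactate dehydrogenase subunit Ldhb (2.22 ± 0.050, SE, edgeR adjusted p at most 1.49e-22 for the 3). The smallest of the 7, that of the monocarboxylate transporter Slc16a1 (0.21 ± 0.047), was -0.11 under library size only. Of 7 tested genes of glycerol 3-phosphate metabolism 4 rose and 3 fell, among them the aldolase Aldoa (3.11 ± 0.061), the phosphatase Pgp (1.81 ± 0.058) and the triose phosphate isomerase Tpi1 (1.66 ± 0.043). Aldoa has more than 1 gene model, and its values here and below are from 1 of them, so its level is uncertain. Of 4 tested carriers of other dicarboxylates, glutamate, citrate or NAD, 3 fell and 1 rose. The citrate carrier Slc25a1 fell by 2.66 ± 0.097, the dicarboxylate carrier Slc25a10 by 1.71 ± 0.061 and the glutamate carrier Slc25a22 by 0.65 ± 0.062 on the log2 scale (SE).

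Of the 8 enzymes of malate, fumarate and NAD(P)(H), 4 rose and 4 fell over the WT course, with a median of 0.10. The largest changes were falls, by 3.13 ± 0.037 in the NAD kinase Nadk and by 1.78 ± 0.045 in the cytosolic malic enzyme Me1, and a rise by 1.63 ± 0.16 in the transhydrogenase Nnt (SE), which has 2 gene models and an uncertain level. The 10 aspartate users divided 5 and 5. The isozymes of adenylosuccinate synthase exchanged places, as Adss fell by 4.89 ± 0.065 and Adssl1, known as the muscle form, rose by 3.82 ± 0.047 (SE). Ampd1, the muscle AMP deaminase, rose by 7.32 ± 0.12 (SE) from 0.289 to 45.9 CPM.

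Between the labels in differentiated myotubes, 4 of the 7 lactate and pyruvate genes were higher and none lower, with a median of 0.16 beside -0.012 over all genes and 25.2% of all genes called. Mpc1 (0.35 ± 0.049, SE, edgeR adjusted p 5.59e-06), Ldhb (0.24 ± 0.070) and Slc16a1 (0.16 ± 0.056) were the largest. The calls for Ldhb, Slc16a1 and Ldha were kept in 10, 9 and 8 of 15 alternatives, and that for Mpc1 in all 15. Of the malate and NAD(P)(H) enzymes 4 of 8 were lower, led by the mitochondrial malic enzyme Me2 (-0.51 ± 0.073, SE, edgeR adjusted p 7.50e-06), Nampt, of NAD salvage (-0.38 ± 0.090, edgeR adjusted p 0.00235), and Nadk (-0.24 ± 0.047, edgeR adjusted p 3.99e-04). At this stage Itgam, a marker of the immune list, was at 27.2 and 23.5 CPM in KO-labelled and 14.9, 17.3 and 15.0 in WT libraries, while the whole list summed to 24.3 to 28.0 and 15.5 to 18.5 CPM. Its part in these differences was not tested. Of the aspartate users, Cad, of pyrimidine synthesis (-0.52 ± 0.077), Adss (-0.44 ± 0.093) and the argininosuccinate synthase Ass1 were lower and the AMP deaminase Ampd3 was higher (0.34 ± 0.099, SE, edgeR adjusted p 9.68e-06, 6.79e-04, 0.00936 and 0.0114). Me2 and Nampt were called in all 15 alternatives, Nadk, Cad and Adss in 14 each, and Ass1 and Ampd3 in 12 each.

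In fused myotubes, where 13% of all genes were called, 2 of 7 lactate and pyruvate genes were higher, Slc16a1 (0.23 ± 0.043) and the pyruvate carrier subunit Mpc2 (0.21 ± 0.060, SE, edgeR adjusted p 5.25e-04 and 0.0182). Of the malate and NAD(P)(H) enzymes, 2 were higher and 2 lower, with the malic enzymes Me3 at 0.27 ± 0.078 and Me1 at 0.22 ± 0.049 and Nadk at -0.23 ± 0.047 (SE, edgeR adjusted p 0.0223, 0.00236 and 0.00143). Of the aspartate users 2 were higher, led by the asparagine synthetase Asns (0.36 ± 0.036) and Ass1 (0.33 ± 0.058), and 2 lower, with Ampd1 at -0.49 ± 0.053 (SE, edgeR adjusted p 7.26e-08, 3.03e-04 and 2.90e-07). The Slc16a1, Me1, Nadk, Asns and Ampd1 calls held in all 18 alternatives, that of Ass1 in 17, that of Me3 in 13 and that of Mpc2 in 12.

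Of the 7 tested genes of glycerol 3-phosphate metabolism, 4 were higher and 1 lower in KO-labelled differentiated myotubes, with a median log2 change of 0.14 beside -0.012 over all genes and 11% of all genes called higher. The higher ones were Aldoa (0.24 ± 0.064), Pgp (0.21 ± 0.064), Tpi1 (0.19 ± 0.049) and the acyltransferase Gpat4 (0.14 ± 0.040, SE, edgeR adjusted p 0.0061, 0.0156, 0.00398 and 0.012), kept in 14, 11, 14 and 10 of 15 alternatives. In fused myotubes the glycerol kinase Gk was higher (0.22 ± 0.070, SE, edgeR adjusted p 0.0418), a call kept in 7 of 18 alternatives. The 1 gene of the list called lower was the same at all 3 stages, Gpam, a mitochondrial acyltransferase that uses glycerol 3-phosphate. It was at 54.8, 55.1 and 57.7 CPM in KO-labelled myoblasts against 88.3, 89.2 and 86.0 in WT, at 116 and 119 against 139.6, 138 and 142 in differentiated myotubes, and at 150.2, 149, 153 and 158 against 251, 244, 238 and 255 CPM in fused myotubes. The labels did not overlap at any stage, beside 33%, 46.5% and 15.8% of all genes without overlap at the 3 stages taken singly. The log2 changes were -0.65 ± 0.038, -0.25 ± 0.042 and -0.70 ± 0.031 (SE, edgeR adjusted p 1.71e-12, 4.47e-05 and 3.76e-15), and every alternative called each of them. Slc16a3, named after its values were seen, was lower in KO-labelled myoblasts at 0.316 against 0.639 CPM (-1.02 ± 0.31, SE, edgeR adjusted p 0.0298), a call kept in 10 of 16 alternatives. It rests on few counts, with 8, 14 and 8 estimated counts in KO-labelled libraries against 19, 15 and 18 in WT. The 5 myogenic markers called lower stand beside it at this stage, where 11.6% of all genes were called. The part of these markers was not tested.

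Over the 19 libraries, which fall into 3 stages, each member had many genes of similar pattern. By Pearson r of log2 CPM the nearest were Hibadh and Oaz2 for Mdh1, Ndufv1 and Sdhc for Mdh2, Uqcrc1 and Uqcrc2 for Slc25a11, and Klhl8 and Prkar1a for Slc25a12. They were Oard1 and Cyb5a for Slc25a13, Ucp2 and Atl2 for Gpd1, and Sdc4 and Fkbp5 for Gpd2. These r were 0.985 to 0.999 among 11491 genes, of which 497 to 1072 were above 0.95 for each member. The points share stage and library, so these values describe a common course.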

How the data were processed

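RNA of 19 libraries in 6 groups was analysed. Estimated counts and TPM per transcript were made by the authors with kallisto 0.46.1 after fastp 0.20.0 and bcl2fastq 2.20 on GRCm38.p6, per the submitters' processing notes. They also name edgeR 3.36 with no role stated. The deposited effective lengths served 1 alternative and also underlie the deposited TPM. In WT myoblast replicate 1 they exceeded the transcript's own length for 19993 transcripts. Of 121843 transcripts, 121018 matched GENCODE M21, and the rest held 0.255% to 0.507% of counts. Counts were summed per gene, rounded and tested with edgeR 4.0.16 (TMM, filterByExpr, quasi-likelihood, 6 groups, Benjamini-Hochberg over 15123 genes, adjusted p under 0.05), after a test on simulated data. The members and gene lists were chosen with earlier results of these data known. Text names all members, all shuttle partners and up to 3 called genes per list and comparison with the largest change and at least 1 CPM in the higher group, exceptions stated. The length and GC offset and the sums with the unmatched transcript, also those over protein-coding transcripts, are alternatives chosen after seeing the data. Replicates of a group differed beyond counting noise (chi-square per degree of freedom 2.14 to 7.68), so none was merged. Same-numbered libraries of the labels did not deviate together (r -0.053 to 0.019), so numbers were not used as pairs.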

Additional observations from a re-analysis of the deposited data

Results flagged for a closer look

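Slc25a11 in KO-labelled fused myotubes had 1 low library, replicate 4 at 231.3 CPM, which stood apart from the other 3 by 0.846 of the range. It was 1 of 14 tests, each of a member within a group of 4 libraries, and chance marks about 1 in 20.

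The effect of the label was called by edgeR as different between stages for Mdh1 and Gpd2. The Mdh1 values were 0.492 from myoblasts to differentiated myotubes and -0.394 from differentiated to fused, on the log2 scale. For Gpd2 the value was -0.375 from myoblasts to differentiated myotubes. With the unmatched transcript the Mdh1 values were 0.052 and -0.026 and were not called. None of these calls was kept with the effective-length offset, and the KO-labelled differentiated group has 2 libraries.

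The transcript ENSMUST00000239073, which the annotation used does not hold and which has the length built for the RefSeq Mdh1 mRNA, had a mean of 629 CPM in WT fused myotubes.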

How the results depend on the processing

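Of the members' values, 579 under other settings and 496 with 1 library left out kept their direction and side of the threshold. Among the kept are values that were not called either way. Of the rest, 32 and 26 changed sign, 18 and 13 lost a call and 9 and 4 gained one. The numbers of members called between the labels depended on the settings. In differentiated myotubes 2 became 1 under library size only, only the groups compared, protein-coding transcripts only or Mdh1 with the unmatched transcript, and 0 with the effective-length offset. In fused myotubes 1 became 0 under DESeq2's test, the effective-length offset and protein-coding transcripts. The earlier interaction went from 2 to 0 (effective length) or 1 (protein-coding transcripts, length and GC offset, unmatched transcript), and the later from 1 to 0 (effective length, protein-coding transcripts, unmatched transcript) or 2 (length and GC offset). The members called also changed where the count did not. Under library size only the 1 of the later interaction was Gpd2 in place of Mdh1, and with the length and GC offset the 2 in differentiated myotubes, and those of the later interaction, were Mdh1 and Slc25a12. Leaving out 1 library gave 0 to 1 members in myoblasts, 0 to 2 in differentiated and 0 to 1 in fused myotubes, and 0 to 2 and 0 to 1 for the interactions. The cause was not tested. Over all genes, calls between the labels fell to 584, 2149 and 823 with the effective-length offset, from 1747, 3810 and 1972, and library size only moved the median of all genes to -0.23 and -0.33 from WT myoblasts to differentiated and to fused myotubes. Other counts over 1.5 times apart were 2625 and 1055 in myoblasts (only the groups compared, protein-coding transcripts) and 925, 1144 and 1067 there without WT replicate 3 or KO-labelled replicate 1 or 3, and for the interactions 1454, 981 and 665 (effective length) against 2890, 2238 and 1557, and 3425 for the second (length and GC offset).

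Values that changed sign, on the log2 scale, were mostly near 0. Mdh2 between labels in fused myotubes was 0.0011 with DESeq2 size factors, 0.0033 at a mean CPM of at least 1, 0.0012 in DESeq2's test, 0.0034 with only the groups compared and 0.046 with protein-coding transcripts. Slc25a11 in the earlier interaction was 0.022 with DESeq2's size factors and 0.022 with its test. Under library size only, Slc25a11 in differentiated myotubes was -0.030, Gpd2 in fused myotubes -0.00082, Mdh2 at the earlier WT step -0.18, Slc16a1 at that step -0.14 and over the course -0.11, Slc25a51 over the course -0.044 and Adsl -0.15. With the effective-length offset, Slc25a11 in differentiated myotubes was -0.066, Gpd2 in fused myotubes -0.10 and in myoblasts -0.049, Slc25a12 in myoblasts 0.012, Mdh2 at the earlier WT step -0.085, Slc25a13 at the later one -0.14 and Slc25a22 there 0.27. In the interactions it gave Gpd2 0.017 and -0.070, Gpd1 0.11 in the later and Slc25a12 -0.047 over the course. Over protein-coding transcripts Mdh2 in myoblasts was 0.052, and in differentiated myotubes Slc25a12 was -0.041 and Gpd1 0.012. Its interactions were Mdh2 -0.041, 0.035 and -0.0056, Slc25a13 0.0098 in the earlier and Slc25a12 0.028 in the later. The length and GC offset gave Mdh2 -0.018 at the earlier WT step and -0.0048 in the interaction over the course, Gk 0.049 and Dars 0.0069 at the later WT step, and Nampt 0.085 and Adsl -0.023 over the course. Mdh1 with the unmatched transcript was 0.016 between labels in fused myotubes.

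With 1 library left out, signs changed within these ranges: Gpd1 between labels in differentiated myotubes -0.43 to 0.24 and in the later interaction -0.49 to 0.19, Gpd2 in fused myotubes -0.042 to 0.031, Mdh2 in fused myotubes -0.020 to 0.024, in myoblasts -0.044 to 0.0049 and in the interaction over the course -0.0060 to 0.042. Slc25a11 had -0.027 to 0.081 in differentiated myotubes and -0.069 to 0.039, -0.0073 to 0.10 and -0.0052 to 0.067 in the interactions. Slc25a12 over the course had -0.013 to 0.061 and Slc25a13 in the earlier interaction -0.47 to 0.11.

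The replicate block (same number as a pair) changed no member's call, and Gpd2 in fused myotubes moved to -0.0014. The split of calls between higher and lower also moved with scaling, as in differentiated myotubes, where 43.9% of called genes were higher, 27% with library size only and 68.7% with the length and GC offset. Depth limits Gpd1 and Slc16a3 in myoblasts and Slc25a13 in myotubes, which rest on few counts.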
